A study of Mus musculus with 30 samples.

Results

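The effect of losing Camk2d was examined in the retina of mice without diabetes. The comparison set the 4 retina libraries labelled knockout and non-diabetic against the 3 labelled wild-type and non-diabetic, 7 of the 14 retina libraries and of the 30 libraries in the series, and it covered every gene tested. All mice were 16 weeks old. The knockouts lacked Camk2d globally, in the whole animal and not in one cell type, and the non-diabetic mice of both genotypes carried the intact leptin receptor, Lepr(+/+). The other 7 retina libraries came from Lepr(db/db) mice, which are diabetic, 4 wild-type and 3 knockout, and serve here as a second set of animals. The labels name neither strain, sex, litter and allele design nor any drug or other treatment. Each library came from 1 numbered animal and is called R with that number: R812, R819 and R852 were wild-type, and R559, R560, R582 and R590 were knockout. Values per library are given in that order.

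Calcium/calmodulin-dependent kinase II (CaMKII) is a multi-subunit kinase that calcium-loaded calmodulin switches on and that can stay active after calcium has fallen, by phosphorylating itself. Its subunits come from the alpha, beta, gamma and delta genes, Camk2a, Camk2b, Camk2g and Camk2d. In neurons, retinal neurons included, the kinase adjusts synapses, ion channels and activity-dependent transcription, and the delta form is best known from heart muscle.

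Totals ran from 20238713 to 20711550 counts in the 7 libraries, so depth differed little between them. Mitochondrial transcripts took 6.83 to 7.65% of counts. Rod genes were high in every library, and the 27 on the list together reached 74619 to 77608 CPM (counts scaled to library size) in the wild-type group and 76696 to 91499 CPM in the knockout group. By Xist and Y-linked transcripts 1 wild-type and 2 knockout libraries were female. The transcripts of lens, a neighbouring tissue, split the wild-type libraries: the lens list summed to 1826 CPM in R812, 1194 CPM in R819 and 148 CPM in R852, against 135 to 245 CPM in the knockouts. Wild-type sums of the pigment epithelium list were 532 to 681 CPM, and knockout sums reached 1076 CPM in R590. The p-values below rest on the spread within groups over all 14 retina libraries, the diabetic ones included, which were fitted together. On a principal component analysis of the 2000 most variable genes the first component, 38.8% of the variance, placed the wild-type libraries between −31.19 and −28 and the knockouts between 15.54 and 24.78.

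Camk2d itself was nearly lost. It lay at 331, 305 and 285 CPM in the wild-type retinas and at 3.82, 4.24, 3.09 and 3.9 CPM in the knockouts, so that 1.23% of the wild-type mean remained. The log2 fold was −6.35 ± 0.09 (adjusted p = 2.51e-16 by edgeR's quasi-likelihood test with Benjamini-Hochberg adjustment, n = 3 and 4). The ± after a log2 fold is an approximate standard error, the size of the fold divided by the square root of the test's F statistic. Camk2d (ENSMUSG00000053819.16) occupies chromosome 3 from 126596302 to 126846326 in GRCm38, and the exons deleted cannot be read from values summed over a whole gene. The predicted transcripts Gm43011 and Gm43006, annotated inside its span, fell with it, and their reads are not separable from those of unspliced Camk2d RNA, which lies on the same strand. Gm43011 went from 1.14, 1.22 and 1.57 CPM to 0.147 CPM or less. Gm43006 went from 0.395, 0.782 and 1.37 CPM to 0 CPM in each knockout library.

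The other CaMKII genes did not pass the test. Per transcript length, in TPM (the length-scaled unit of the deposited files), the wild-type mean levels were 136 for Camk2d, 72.5 for Camk2b, 70.2 for Camk2g and 16.2 for Camk2a, which made delta the most abundant form. In the knockouts the mean TPM levels were 3.1, 74.8, 78.4 and 15.5 in the same order. Camk2b stood at 170, 147 and 160 CPM against 142, 151, 177 and 163 CPM (−0.00 ± 0.08, adjusted p = 0.986 by edgeR). Camk2g stood at 108, 96.8 and 109 CPM against 110, 108, 114 and 114 CPM (0.09 ± 0.14, 0.839). Camk2a stood at 50.3, 41.9 and 49.3 CPM against 44, 44.5, 45.1 and 45.6 CPM (−0.07 ± 0.10, 0.827). The libraries of the 2 genotypes overlapped for all of these. None of the 16 genes of calmodulin, calcineurin and the other CaM kinases was called, with a median log2 fold of −0.11.

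Across the transcriptome the change was limited in number. Of 20979 genes tested, 240 (1.14%) were called at an adjusted p under 0.05 by edgeR, of which 133 (0.634%) rose and 107 (0.51%) fell. The libraries of the genotypes did not overlap for 233 of these 240, against 13.5% of all genes tested. The calls were made on these same libraries, so this separation is no further evidence for them. The median log2 fold of all genes tested was −0.01. Among the calls the median size was 0.83 log2 units, 104 exceeded 1 and 74 were under 0.5. The number was 72 with the summed lens level as a covariate, 408 in a fit of only the 2 groups compared, 506 with DESeq2 and 158 with limma on log2 TPM. It also rested on single libraries: it was 120 without R819, 137 without R852, 138 without R812, 140 without R560, 142 without R559 and 373 without the diabetic wild-type R844, which enters the shared estimate of spread.

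Many of the largest changes fell on genes with mostly unique sequence and were present in every library. Prss41, a serine protease gene, went from 4.94, 4.25 and 4.71 CPM to 0.201, 0.15, 0.294 and 0.244 CPM (−4.34 ± 0.29, adjusted p = 4.57e-07). Its relative Prss33 went from 1.83, 1.86 and 2.06 CPM to 0.452, 0.25, 0.245 and 0.683 CPM (−2.21 ± 0.34, 0.00406). Both proteases were low in each knockout. Gje1, a member of the connexin family of gap junction genes, rose from 0.297, 0.489 and 0.491 CPM to 5.83, 8.19, 8.83 and 8.83 CPM (4.20 ± 0.35, 6.11e-06). Adgrf4, an adhesion G protein-coupled receptor, rose from 0.593, 0.587 and 0.687 CPM to 4.52, 4.14, 3.43 and 3.27 CPM (2.61 ± 0.20, 1.6e-06). Each of these remained a low transcript, under 9 CPM, in the knockouts.

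Other calls in mostly unique genes included more abundant transcripts. Thoc5, a subunit of the THO complex that couples transcription to RNA export, rose from 49.3, 52.4 and 51.2 CPM to 111, 108, 101 and 92.5 CPM (1.02 ± 0.09, adjusted p = 1.11e-05 by edgeR). Glp2r, the receptor of glucagon-like peptide 2, rose from 123, 86.6 and 68.8 CPM to 259, 261, 274 and 187 CPM (1.40 ± 0.22, 0.00486). Arl6ip1, an endoplasmic reticulum membrane protein gene, fell from 270, 261 and 250 CPM to 174, 180, 179 and 193 CPM (−0.52 ± 0.07, 0.000827). The genotypes did not overlap for any of the 3. Dnah8, an axonemal dynein heavy chain, fell by 1.75 ± 0.25 (0.00243).

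**Figure D1:**
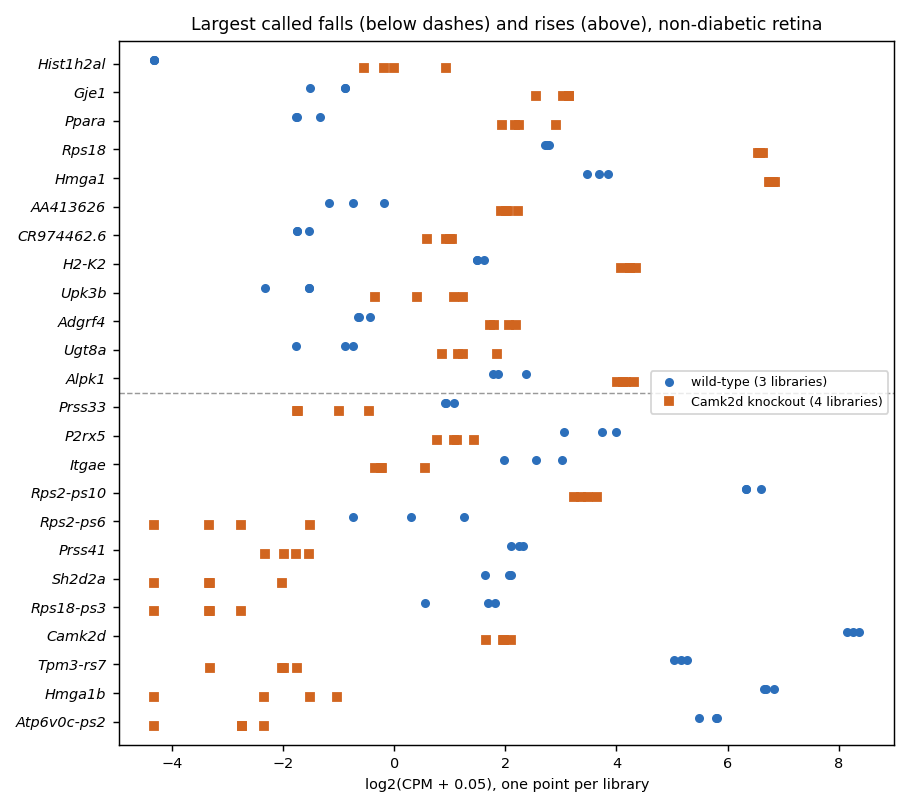
Level of the 12 largest called falls and the 12 largest called rises in each of the 7 non-diabetic retina libraries, as log2(CPM + 0.05); circles are wild-type and squares knockout libraries. The groups do not overlap in any gene shown, which was a condition for showing it, and Camk2d keeps 3.09 to 4.24 CPM in the knockouts.

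Further large changes were called less firmly. Ppara, the nuclear receptor that drives fatty acid oxidation, rose from 0.247, 0.244 and 0.344 CPM to 4.72, 4.44, 3.78 and 7.46 CPM (4.17 ± 0.89, adjusted p = 0.0335 by edgeR). The ATP-gated channel gene P2rx5 fell from 8.25, 15.8 and 13.3 CPM to 2.06, 1.65, 2.65 and 2.15 CPM (−2.55 ± 0.45, 0.01). The lymphocyte genes Sh2d2a, a T cell adapter, and Itgae, an integrin chain, fell by 5.57 ± 1.06 (0.0171) and 2.64 ± 0.54 (0.0269). Itgae went from 3.9, 8.02 and 5.79 CPM to 0.804, 0.799, 1.42 and 0.732 CPM, while none of the 5 lymphocyte markers tested was called. Of those 5 markers, 4 had a fold above 0, and their median log2 fold was 0.32. Each knockout library had a higher lymphocyte list sum (5.74 to 6.84 CPM) than any wild-type library (4.6 to 5.52 CPM). These sums were not tested, but the list did not fall along with Sh2d2a and Itgae. Ugt8a, which makes the myelin lipid galactosylceramide, and the uroplakin gene Upk3b rose by 2.50 ± 0.55 (0.0387) and 2.66 ± 0.60 (0.0432). None of these genes was called between genotypes in diabetic retinas. For Ppara, P2rx5, Sh2d2a, Itgae and Upk3b, 3 of the 4 diabetic wild-type libraries lay nearer the non-diabetic knockout mean than the wild-type mean. For Ugt8a it was 2 of 4. The call of P2rx5 ended without R819 (−2.33), that of Ppara without any 1 of the 7 libraries (3.92 to 4.35), and that of Sh2d2a without R559, R560, R582, R819 or R852 (−5.50 to −5.19). That of Itgae ended without R559, R560, R590, R819 or R852 (−2.65 to −2.35), that of Ugt8a without R559, R560, R582, R812, R819, R852 or the diabetic R587 (2.23 to 2.72), and that of Upk3b without R559, R560, R590, R812, R819, R852 or the diabetic R954 (2.42 to 2.82).

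The largest folds of all belonged to genes that share sequence with a near-identical copy, and the level of each such gene alone is uncertain. Of the 240 calls, 92 had under 90% unique sequence and 39 had under 50%. Unique sequence here means the share of 31-base words in a gene's transcripts that occur in no other gene. These counts were not compared with those of all genes tested, so they show no excess of shared sequence among the calls. A fit restricted to coding genes whose sequence was 90% or more unique called 132 of 12188, against 240 of 20979 in the main fit. Hmga1b (chromosome 11, 7.3% unique) went from 115, 101 and 103 CPM to 0.301, 0, 0.441 and 0.146 CPM (−8.86 ± 0.23, adjusted p = 1.97e-12 by edgeR). Hmga1 (chromosome 17, 37.9% unique), the gene of a chromatin protein that bends DNA, rose from 14.4, 11 and 12.9 CPM to 116, 109, 113 and 108 CPM (3.12 ± 0.08, 2.31e-12). Their coding sequences, 324 bases each in the annotated transcripts compared, were identical, and their summed level was 119 ± 9.19 CPM (SD, n = 3) in wild-type and 112 ± 4.25 CPM (n = 4) in knockout retinas. The sums overlapped, at 112 to 130 CPM and 108 to 117 CPM.

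Opposite changes also appeared in the tropomyosin gene Tpm3 and its copy Tpm3-rs7. Tpm3-rs7 (chromosome 14, 21.4% unique) went from 35.8, 38.4 and 32.9 CPM to 0.201, 0.0499, 0.245 and 0.195 CPM (−7.64 ± 1.54, adjusted p = 0.0237 by edgeR), and Tpm3 (chromosome 3, 73% unique) rose from 35.6, 38.3 and 32.8 CPM to 78.6, 79.6, 79.6 and 81.3 CPM (1.17 ± 0.22, 0.0139). The aligned coding sequences of 747 bases differ at 3 positions, all within the 61 bases printed here, from coding position 67 to 127 counted from the A of the start codon. These bases are shown because reads that do not cross them cannot be told apart within the coding sequence. Capitals mark the differing bases, and the sequences are from the GENCODE M21 transcripts:
Tpm3: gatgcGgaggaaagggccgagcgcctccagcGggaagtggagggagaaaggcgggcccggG
Tpm3-rs7: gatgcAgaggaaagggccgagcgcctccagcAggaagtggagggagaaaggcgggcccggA
The substitutions are G72A, G98A and G127A, with the Tpm3 base first. The summed level of the pair was 71.3 ± 5.47 CPM (SD, n = 3) in wild-type and 79.9 ± 1.13 CPM (n = 4) in knockout retinas, and these sums did not overlap, at 65.8 to 76.7 CPM and 78.8 to 81.5 CPM. The Tpm3-rs7 call ended without any 1 of the 7 libraries (−7.85 to −7.34) and the Tpm3 call without R812, R819 or R852 (1.12 to 1.23).

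Other pairs behaved in 2 ways. The sum overlapped between the genotypes for Rps2, a protein of the small ribosomal subunit, with its pseudogene Rps2-ps10, at 167 ± 14.1 and 166 ± 6.91 CPM, although Rps2 alone rose (0.94 ± 0.07, adjusted p = 2.83e-06 by edgeR) and Rps2-ps10 fell (−2.99 ± 0.16, 2.26e-08). So did that of Atp6v0c, a proton pump subunit, with Atp6v0c-ps2, at 524 ± 33.6 and 489 ± 6.48 CPM, where the pseudogene alone fell by 9.13 ± 0.23 (1.97e-12). In other pairs the sum itself did not overlap between genotypes. Glo1, the enzyme gene that detoxifies methylglyoxal, together with Gm13443 summed to 539 ± 19.9 and 193 ± 10.7 CPM. Glo1 alone stood at 511, 482 and 480 CPM against 191, 180, 196 and 206 CPM and was not called (−1.34 ± 0.34, 0.0768), although it was, at the same fold, in the fit of only the 2 groups compared, with DESeq2, with no expression filter, without the diabetic R844, and without R915, R942 and R954. Rnps1, an RNA-binding splicing factor, with Gm9825 summed to 117 ± 4.68 and 151 ± 2.9 CPM, the actin-capping gene Capza1 with Gm3608 to 90.8 ± 3.35 and 73.8 ± 3.63 CPM, and Srp54a, a signal recognition particle subunit, with Srp54b to 81.7 ± 10.3 and 272 ± 59.8 CPM. The ribosomal protein gene Rps18 (72.1% unique), whose fold was 3.85 ± 0.59 (0.00406), had 6.67, 6.5 and 6.87 CPM against 99.5, 94.1, 96.1 and 95.6 CPM. Gm11361, which holds 15.8% of its 31-base words, went from a mean of 28.4 CPM to 0.074 CPM, so the sum of this pair was 35.1 ± 3.88 and 96.4 ± 2.27 CPM, a log2 difference of 1.46. The call of Capza1 alone (−1.54 ± 0.29, 0.0164) ended without R559, R560, R812, R819 or R852 (−1.57 to −1.51).

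**Figure D2:**
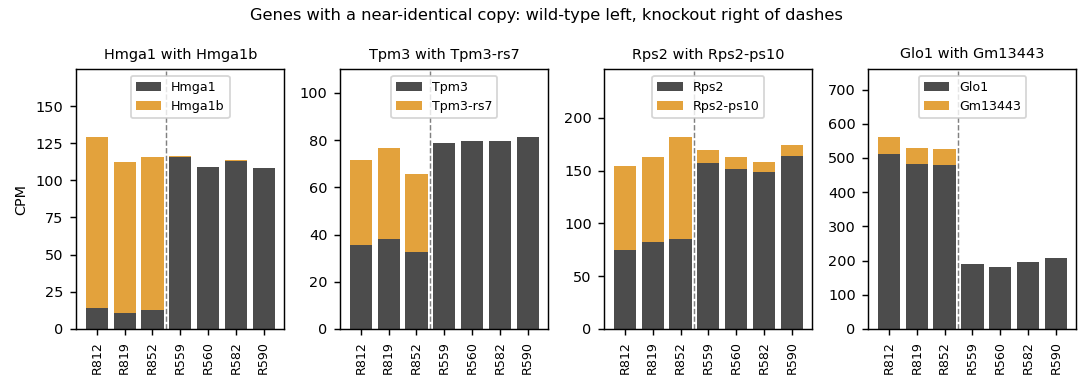
Stacked CPM of 4 genes, each with a copy that shares part of its sequence, in the 7 non-diabetic retina libraries, wild-type left and knockout right of the dashed line. The stacks of Hmga1 and of Rps2 keep their height while the gene and its copy exchange shares, and the stack of Glo1 drops from 539 to 193 CPM on average.

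The calls were unevenly placed on the genome. Chromosome 17 held 56 calls among 1009 genes tested (5.55%), chromosome 11 held 36 of 1441 (2.5%) and chromosome 3, which carries Camk2d, 25 of 1099 (2.27%), against 1.14% of all genes. Together these 3 chromosomes held 117 calls of 3549 (3.3%), and all others 123 of 17376 (0.708%). The windows of 10 Mb with most calls were 20 to 30 Mb of chromosome 17, with 26 calls of 270 genes (9.63%), and 30 to 40 Mb beside it, with 18 of 236 (7.63%). Then came 120 to 130 Mb of chromosome 3, with 10 of 87 genes (11.5%), and, on chromosome 11, 0 to 10 Mb with 9 of 97 (9.28%) and 70 to 80 Mb with 9 of 192 (4.69%). Hmga1, Prss41, Prss33, Rnps1 and Rps2 lie in the first chromosome 17 window, Rps18, Dnah8 and the class I histocompatibility genes in the second, and Thoc5 in the first window of chromosome 11.

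**Figure D3:**
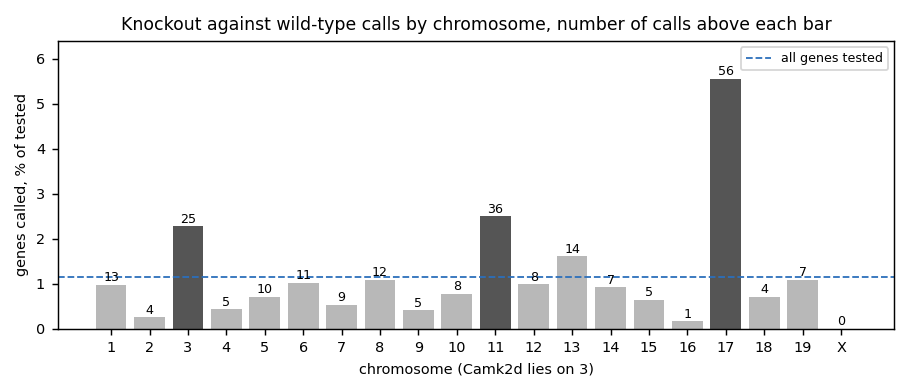
Genes called between knockout and wild-type non-diabetic retina as a percent of the genes tested on each chromosome, with the number of calls above each bar; the dashed line is the 1.14% over all genes. Chromosome 17 reaches 5.55%, with chromosomes 11 and 3 next among the darker bars at 2.5% and 2.27%.

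Around Camk2d itself, 9 of 92 other genes within 5 Mb were called (9.78%), 7 up and 2 down. Within 2 Mb it was 6 of 31 (19.4%), 4 up and 2 down. In both counts the 2 that fell were Gm43011 and Gm43006, which lie inside Camk2d and are not separable from its unspliced RNA. All called genes outside the span of Camk2d rose. Alpk1, a kinase that senses a bacterial sugar, rose from 3.36, 3.62 and 5.1 CPM to 18, 16.1, 17.4 and 19.8 CPM (2.14 ± 0.41, adjusted p = 0.0171 by edgeR). Its neighbour Tifa, the adapter through which Alpk1 is known to act in human cells, rose from 9.09, 8.41 and 8.74 CPM to 15.3, 16, 18.8 and 20.1 CPM (means 8.75 ± 0.344 and 17.5 ± 2.27 CPM, SD, n = 3 and 4, adjusted p = 0.0139 by edgeR). Arsj, an arylsulfatase family gene ahead of Camk2d, rose from 0.247, 0.293 and 0.294 CPM to 1.31, 1.1, 1.23 and 1.07 CPM (2.05 ± 0.33, 0.00613). The groups were apart for all 3. The call of Alpk1 ended without R812 (2.04) or R819 (2.08), and that of Tifa without R812, R819 or R852 (0.98 to 1.04). With the lens covariate all 3 calls ended (Alpk1 1.99, Tifa 1.05 and Arsj 2.13), and that of Alpk1 also with limma on log2 TPM (1.65). In diabetic retinas none of the 3 was called, at folds of 0.76 for Alpk1, 0.08 for Tifa and 1.12 for Arsj. Tifa there had 9.91 CPM in the wild-type R844 but 19.5, 19.3 and 18.9 CPM in the wild-types R915, R942 and R954. The diabetic knockouts had 18.5, 17.3 and 18 CPM.

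The Lepr(db/db) retinas gave a second look at each call, since they share no library with the comparison. Both contrasts came from the same fit and share its estimate of spread, so their calls are not fully independent. There, 374 genes (1.78%) were called between knockout and wild-type, 213 up (1.02%) and 161 down (0.767%). In a fit of only the 2 diabetic groups the number was 61. Leaving out 1 library, it ran from 91 without R591 to 1120 without R844. It was 100 without R587, 110 without R588, 123 without R942, 140 without R915 and 193 without R954. Of the 374, 75 were also called without diabetes, 31.2% of the non-diabetic and 20.1% of the diabetic calls, and 71 of them in the same direction. Of the non-diabetic calls on chromosomes 3, 11 and 17, 41.9% were also called in diabetic retinas, against 21.1% of those elsewhere. By chromosome this was 30 of 56 calls on 17, 14 of 36 on 11 and 5 of 25 on 3. Diabetic calls made up 4.96%, 2.71% and 2.09% of the genes tested on chromosomes 17, 11 and 3. Prss41 (−4.59), Hmga1 (2.91), Gje1 (2.54), Adgrf4 (1.88) and Glp2r (1.16) were among the genes called in both.

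For many of the calls some wild-type diabetic libraries lay nearer the knockouts. Among the 96 called genes with a log2 fold over 1 in size and no overlap, each diabetic library was placed on the side of whichever non-diabetic mean, wild-type or knockout, its log2 level was nearer. The knockout diabetic libraries lay on the knockout side for 89 to 92 of the 96 genes. The wild-type diabetic library R844 lay there for 7, but R915, R942 and R954 for 55, 56 and 52. On chromosomes other than 3, 11 and 17, R915, R942 and R954 lay there for 32, 31 and 33 of 49 genes.

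Single genes showed this split plainly. Rps18, uncertain on its own as above, had 7.53 CPM in R844 but 85.5, 97.3 and 101 CPM in R915, R942 and R954, next to 86.4 to 94.3 CPM in diabetic knockouts. Capza1 had 87.9 CPM in R844 and 30.1, 31.2 and 27.2 CPM in the other 3, and Alpk1 had 2.72 CPM against 17.4, 14.3 and 16.3 CPM. Ppara had 0.198 CPM in R844 against 11, 3.58 and 3.17 CPM, and P2rx5 had 10.9 CPM against 2.47, 2.39 and 2.64 CPM. Itgae had 6.04 CPM against 0.986, 0.994 and 1.27 CPM, and Sh2d2a had 3.76 CPM against 0.148, 0.0994 and 0.244 CPM. The class I pseudogene H2-K2 had 2.97 CPM in R844 and 17, 19.4 and 23 CPM in R915, R942 and R954, beside 2.77, 3.03 and 2.75 CPM in non-diabetic wild-type and 18.8, 18.9, 20.5 and 16.8 CPM in non-diabetic knockout retinas (2.72 ± 0.45, adjusted p = 0.00732 by edgeR). Camk2d itself lay at 320, 321 and 315 CPM in R915, R942 and R954 and at 343 CPM in R844. For Alpk1 these 3 libraries lay below the diabetic knockouts, at 20.4, 20.5 and 23.3 CPM. Hmga1, Prss41 and Glp2r kept wild-type levels in all 4 of these libraries. The cause of this split was not tested.

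**Figure D4:**
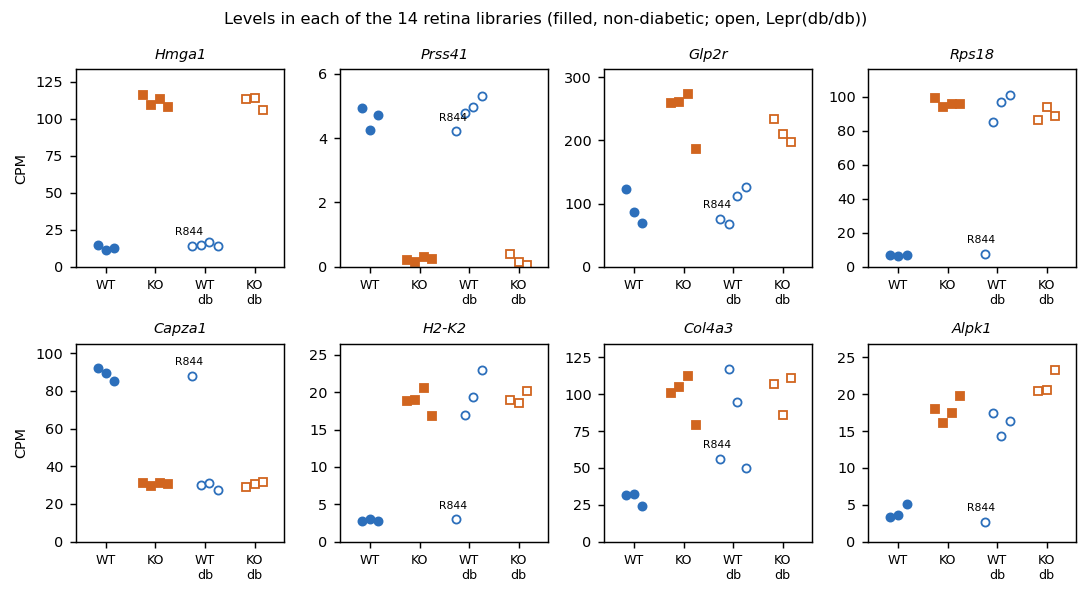
CPM of 8 called genes in each of the 14 retina libraries, by genotype (circles wild-type, squares knockout) and diabetic state (open symbols diabetic). In Hmga1, Prss41 and Glp2r both wild-type groups lie apart from both knockout groups, whereas in Rps18, Capza1, H2-K2 and Alpk1 only R844 among the diabetic wild-types stays with the non-diabetic wild-type level.

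Gene groups of the retina were compared next by counting their called members, against 1.14% of all genes and a median log2 fold of −0.01. No member was called among 27 rod, 12 cone, 18 bipolar, 20 amacrine, 6 horizontal, 16 ganglion, 13 Müller glia or 5 astrocyte genes, nor among 13 pigment epithelium, 16 microglia and macrophage or 17 vessel genes. Their medians ran from −0.19 in horizontal cells to 0.15 in microglia. The amacrine sum was lower in every knockout library, at 1427 to 1527 CPM against 1543 to 1793 CPM, with 3 of 20 folds above 0. The horizontal sum was lower too, at 284 to 302 CPM against 304 to 339 CPM. Sums of the other lists just named overlapped, and the sums were not tested. Folds above 0 were also few among bipolar (4 of 18), ganglion (4 of 16) and Müller glia (3 of 13) genes, so this was not particular to amacrine genes. They were many among rod (20 of 27), microglia and macrophage (13 of 16) and pigment epithelium (10 of 13) genes. In diabetic retinas the amacrine sums were also apart, at 1421 to 1647 CPM in knockouts and 1654 to 1830 CPM in wild-types. The horizontal sums overlapped there. In whole tissue, fewer cells of a type and less RNA per cell cannot be told apart. Neither the 18 ribbon synapse genes (median −0.02) nor the 30 transmitter receptor genes (−0.04) held a call, and the same was true of the 13 mitochondrially encoded and 23 nuclear respiratory chain genes, of glycolysis (22), cholesterol synthesis (20) and the heat shock (10) and unfolded protein (17) responses.

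**Figure D5:**
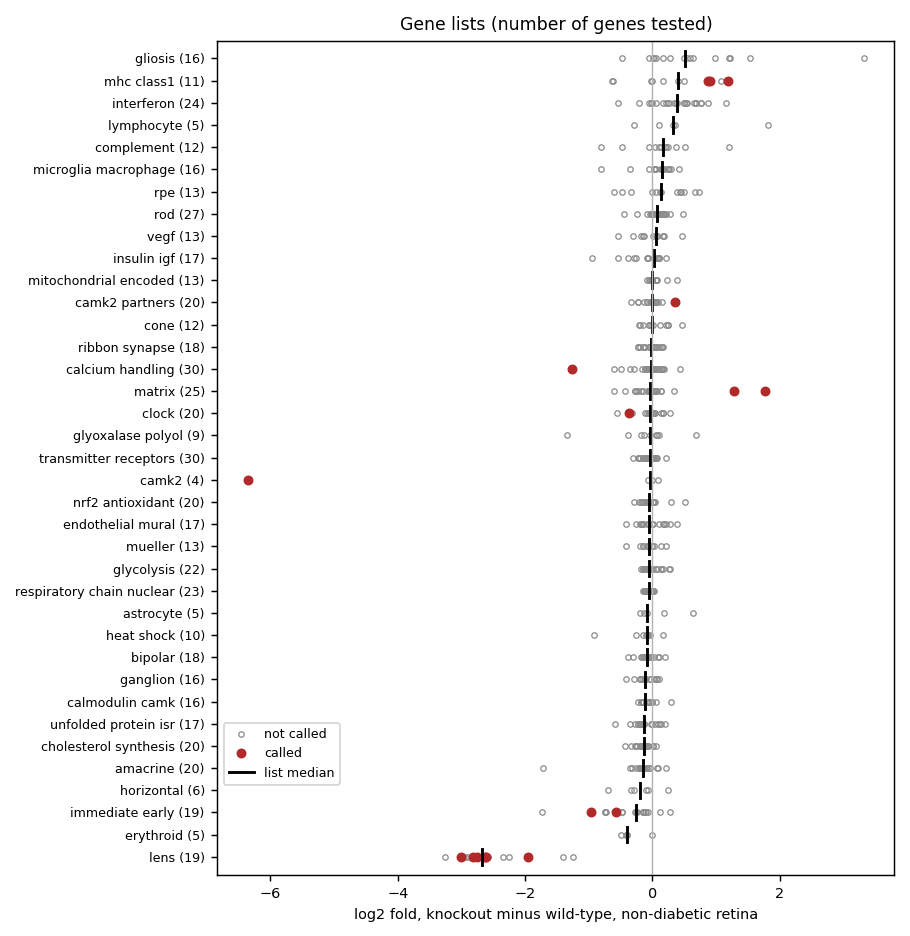
Log2 fold of each member of the 37 gene lists in non-diabetic retina, knockout minus wild-type; filled points passed the test, black bars are list medians, and the number of genes tested is in parentheses. Most lists centre near 0, the lens list lies below −1 throughout with a median of −2.67, and 17 of 589 list genes were called.

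Among kinase partners and calcium handling genes, single members were called. Of 20 binding partners and substrates of CaMKII, Hdac9 alone was called. This histone deacetylase, whose class is exported from the nucleus on phosphorylation by CaM kinases, rose from 76.8, 74.4 and 74.7 CPM to 96.3, 100, 88.8 and 97.1 CPM (0.35 ± 0.06, adjusted p = 0.00884 by edgeR). In diabetic retinas all 4 wild-type libraries lay at 89.8 to 102 CPM and the fold was −0.03 (0.83). Of 30 calcium channel, pump and store genes, 1 fell, the calcium release channel Ryr1, from 4.99, 9.92 and 8.93 CPM to 3.57, 3.25, 3.87 and 2.58 CPM (−1.26 ± 0.27, 0.0315). Its call ended without R559, R560, R582, R590, R819 or R852 (−1.34 to −1.06). In diabetic retinas Ryr1 was not called (−0.32, adjusted p = 0.599 by edgeR). The wild-type R844 had 8.27 CPM there, but R915, R942 and R954 had 3.85, 4.57 and 4.15 CPM, beside 4.32, 3.71 and 4.49 CPM in knockouts.

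Few activity-induced genes passed the test. Of 19 immediate early genes tested, 2 fell and none rose, 2 of 19 had a fold above 0, and the median was −0.26. The list summed to 365, 526 and 550 CPM in wild-type libraries and to 334 to 375 CPM in the knockouts, so R812 lay within the knockout range. Dusp1, the phosphatase that switches off MAP kinases, fell from 21.9, 30.1 and 35.1 CPM to 14.4, 14.9, 15.8 and 14.6 CPM (−0.96 ± 0.17, adjusted p = 0.00984 by edgeR), and Ier2, another early response gene, fell by 0.57 ± 0.11 (0.0232). Dusp1 lies in the first dense window of chromosome 17. Egr1, the most variable of them, stood at 11.8, 104 and 79.6 CPM against 19.7, 30, 14.3 and 14 CPM, so R812 lay below every knockout, and it was not called (−1.74 ± 0.48, 0.107). In diabetic retinas no member was called and the median was −0.10. The Dusp1 call ended without R852 (−0.80) and that of Ier2 without R560, R590, R819 or R852 (−0.54 to −0.48), while Egr1 was called without R812 (−2.23). The labels state neither the time from death to freezing nor the light conditions.

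Class I histocompatibility genes, which present peptides to T cells, were partly higher. Of 11 tested, 3 rose: H2-K1 from 12.2, 13.8 and 12.5 CPM to 26.7, 26.8, 30.2 and 33.4 CPM (1.19 ± 0.19, adjusted p = 0.00613 by edgeR), H2-D1 from 27.4, 28 and 28.7 CPM to 46.7, 46.9, 52 and 59.7 CPM (0.87 ± 0.16, 0.0154), and H2-Q7 (0.91 ± 0.20, 0.0342). These genes share sequence among themselves, with 60.8 to 77.2% of it unique, and lie in the second dense window of chromosome 17. In R915, R942 and R954 the level of H2-K1 was 22, 22.4 and 22 CPM, against 10.8 CPM in R844. The interferon list, none of whose 24 tested genes was called, had a median of 0.38, with 19 above 0, and its summed level was 206 to 241 CPM in the wild-type and 247 to 300 CPM in the knockout group. In diabetic retinas 4 of its genes rose and the median was 0.84. In TPM the mean of H2-K1 was 46.4 in wild-type and 53.9 in knockout retinas, and its call ended with limma on log2 TPM (0.21) and with the lens covariate (1.25). The H2-D1 call ended without R812, R819 or R852 (0.86 to 0.89), and that of H2-Q7 without R559, R582, R590, R812, R819 or R852 (0.76 to 1.06).

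Of 25 matrix genes tested, 2 rose, and they are neighbours. Col4a3 and Col4a4 encode collagen IV chains that assemble together in basement membranes such as that of the glomerulus. Col4a3 rose from 31.5, 32.2 and 23.9 CPM to 101, 105, 112 and 78.9 CPM (1.77 ± 0.25, adjusted p = 0.00216 by edgeR), and Col4a4 from 14.8, 17.3 and 13.2 CPM to 41.8, 47.3, 29.8 and 28.1 CPM (1.28 ± 0.25, 0.0179). They start back to back on chromosome 1, Col4a4 at 82586849 on the minus strand and Col4a3 at 82586921 on the plus strand, with 71 bases between. The promoter window of Col4a4 (RefSeq, GRCm38.p6, chr1:82586800-82587099, minus strand) spans both starts and is shown because both genes moved. Capitals mark the 71 bases between the starts:
Col4a4 promoter: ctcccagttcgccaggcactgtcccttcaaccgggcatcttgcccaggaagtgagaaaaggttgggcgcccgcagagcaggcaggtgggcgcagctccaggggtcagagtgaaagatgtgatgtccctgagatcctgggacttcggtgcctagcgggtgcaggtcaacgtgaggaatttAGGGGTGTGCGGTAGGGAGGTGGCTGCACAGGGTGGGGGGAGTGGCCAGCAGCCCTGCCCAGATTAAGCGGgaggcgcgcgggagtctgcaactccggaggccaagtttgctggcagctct
It holds the pair CG 14 times, and 36.3% of the 32851 promoters of that length hold it at least as often. In diabetic wild-type retinas Col4a3 had 56.2, 117, 94.4 and 49.7 CPM and Col4a4 14.6, 27.1, 24.7 and 24.7 CPM, which overlapped the diabetic knockouts, and neither was called there. The Col4a4 call ended without R559, R560, R812, R819 or R852 (1.14 to 1.40).

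Among 20 clock genes only the repressor Bhlhe40 was called, a fall from 83.4, 79.4 and 89.2 CPM to 63, 66.7, 62.8 and 67 CPM (−0.37 ± 0.09, adjusted p = 0.0492 by edgeR), which ended without R559, R560, R582, R590, R812, R819, R852, R587, R588 or R942 (−0.40 to −0.32). The gliosis list had no call but a median of 0.51, with 14 of 16 genes above 0. Its largest fold was that of Edn2, the endothelin that stressed photoreceptors release in mice, at 0.643, 4.59 and 0.687 CPM against 2.96, 2.25, 21.1 and 53.1 CPM (3.32 ± 1.05, 0.163). The glial filament gene Gfap had 9.39, 8.94 and 10.8 CPM against 16.3, 10.6, 10.8 and 23 CPM (0.64 ± 0.30, 0.385). R590 was the highest library for both, and the genotypes overlapped.

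Lens genes were the one list with many calls. Of 19 tested, 6 fell and all 19 had folds below 0, with a median of −2.67. Crygs, a lens crystallin, had 92.2, 73.8 and 6.87 CPM against 11.5, 5.84, 9.47 and 5.9 CPM (−2.82 ± 0.60, adjusted p = 0.0315 by edgeR), and Mip, the lens water channel, 21.8, 15.3 and 1.96 CPM against 1.21, 1.75, 2.55 and 0.975 CPM (−3.00 ± 0.66, 0.0396). The third wild-type library, R852, lay among the knockouts, so the groups overlapped for all 19. In diabetic retinas the order was the opposite: 15 of these genes rose, with a median of 3.55, and the summed level was 91.1 to 197 CPM in the 4 wild-type and 632 to 1783 CPM in the 3 knockout libraries. The difference between the 2 genotype effects, the interaction, was called for 26 genes (0.124%), 24 with the lower fold in non-diabetic retinas (0.114%) and 2 with the higher (0.00953%). Lens crystallins led it, with Crygs at −6.42 (0.0196). How much lens came along with each retina was not tested. With the lens sum as a covariate, 72 genes were called in non-diabetic retinas, 69 of them among the 240. Beside the lens genes and those given above with it, this covariate ended the calls of Bhlhe40, Capza1, Col4a4, Gm3608, H2-D1, H2-K2, H2-Q7, Hdac9, Ier2, Itgae, Pitpnm3, Ppara, Ryr1, Sh2d2a, Tpm3, Tpm3-rs7, Ugt8a and Upk3b. The calls of Crygs, the crystallins Cryba1, Cryba2 and Cryba4 and Mip each ended without R812, R819, R559, R560, R582 or R590 (−3.31 to −1.94). Those of the 3 Cryba genes also ended without R587, R591, R915 or R954 (−2.75 to −2.60), and that of Mip without R954 (−3.00). No interaction was called without R559, R560, R582, R812, R819 or R915, against 541 without R844, 1 without R590, 7 without R954, 12 without R942 and 17 without R588.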

How the data were processed

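Retinas and kidneys of mice were profiled by RNA-seq. Per the submitters' processing notes, Trim Galore 0.6.4, kallisto (listed as 0.4.6) and the build GRCm38.p6 were used. The deposited files hold expected counts per gene, and TPM values computed by the authors; 35.8% of the count values were not whole. No source used here gives the read strand setting. Of 55385 gene IDs, 55144 matched GENCODE M21, 54487 of them with the version number. Kidney libraries were not used in the tests.

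Counts were rounded, and genes with low counts were removed with edgeR's filterByExpr, leaving 20979. The 14 retina libraries were fitted together, by group, with edgeR 4.0.16 in R 4.3.3 (TMM scaling, quasi-likelihood test, calls at a Benjamini-Hochberg adjusted p under 0.05). CPM values are edgeR counts scaled to the TMM-adjusted library size. Alternatives were DESeq2 1.42.0, limma 3.58.1 on log2(TPM + 1), other scaling, filters and covariates, and leaving out libraries. Unique sequence is the percent of 31-base words in a gene's transcripts found in no other gene. On simulated data in the layout of the 14 retina libraries, with known changes in the non-diabetic knockouts, 20630 genes were tested. There edgeR recovered 47% of changes of 0.5 log2 units, 68.7% of those of 1 and 91% of those of 2. It called 4 of 20430 unchanged genes. Simulated libraries varied independently, without the uneven lens levels or the split among diabetic wild-types, and genes of lowest count were left unchanged. These rates therefore need not hold for the real data.

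No 2 libraries were identical, and depth limits genes under about 1 CPM most. The genes described were taken from the CaMKII genes, the 12 largest non-overlapping rises and falls with a mean of at least 1 CPM in 1 group, called list members (up to 4 a list), called genes around Camk2d and in windows of 10 Mb with at least 4 calls, and leading interaction genes; some of them are not reported here. Gm9825, Gm3608, Gm13443, Gm11361, Srp54b, Atp6v0c, Tifa, Gm43011, Gm43006, Egr1 and Edn2 were chosen after their values were seen. The comparison, the gene lists and the alternatives were chosen with earlier results of these data known.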

Additional observations from a re-analysis of the deposited data

Results flagged for a closer look

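In 2 genes 1 of the 4 knockout libraries stood far from the others, which chance gives in about 1 of 20 groups. At that rate a few such genes would arise by chance among the many described here. Pitpnm3, which encodes a phosphatidylinositol transfer protein relative and rose in the knockouts (0.50 ± 0.09, adjusted p = 0.0157 by edgeR), lay at 386 CPM in R590 and at 441 to 450 CPM in the other knockouts. Its call ended without R559, R560, R819 or R852 (0.46 to 0.50). Itgae lay at 1.42 CPM in R582 and at 0.732 to 0.804 CPM in the others.

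In 6 of the genes described in the text, of the 26 called, the genotype effect in non-diabetic retinas differed from that in diabetic retinas by the interaction test of edgeR. Rsbn1, whose effect was 0.45 without diabetes and −0.03 with it, differed by 0.48 (adjusted p = 0.0488). Crygs differed by −6.42, from effects of −2.82 and 3.61 (0.0196), and Mip by −5.54, from −3.00 and 2.54 (0.0424). The crystallins Cryba1, Cryba2 and Cryba4 differed by −6.04, −6.16 and −6.68 (0.0196 for each), from −2.63, −2.61 and −2.75 without diabetes and 3.42, 3.55 and 3.93 with it. Of these 6, all but Rsbn1 are lens genes, and lens transcripts were high in R812 and R819 and in the 3 diabetic knockouts.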

How the results depend on the processing

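The fall of Camk2d kept its call in every alternative, at −6.41 to −5.07. The 240 calls in non-diabetic retinas, the 374 in diabetic retinas and the 26 interaction calls depended on the setting; the cause was not tested unless the setting itself gives it. They were 506, 703 and 162 with DESeq2, 72, 24 and 1 with the lens sum as a covariate, and 158, 180 and 0 with limma on log2 TPM, where 1820 genes had an unadjusted interaction p under 0.05. Without an expression filter they were 401, 599 and 105, and when only protein-coding genes with 90% or more unique sequence were tested, fewer genes by construction, 132, 228 and 15. Without R915, R942 and R954 they were 431, 128 and 1. With only the 2 groups compared they were 408 and 61, and with the pigment epithelium sum as a covariate the interaction calls were 9. Leaving out 1 library gave 120 to 373, 91 to 1120 and 0 to 541. Of the 240, 229 were also called by DESeq2, 136 by limma and 69 with the lens covariate.

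Of the 51 called genes named in the text, 22 kept the call in every alternative that tested them, 24 lost it without some library, 27 lost it with the lens covariate and none reversed. Camk2b, not called, changed sign from −0.00 to 0.00, 0.01, 0.02, 0.04 or 0.05, with a lowest value of −0.06 without R582. No paired analysis was possible because knockout and wild-type animals share no number.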
